A study of Mus musculus with 3 samples.

Results

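Neurotrophic factors and their receptors were examined as 8 genes chosen by symbol out of 46983 genes in the count table: the neurotrophin ligands Bdnf, Ntf3 and Ntf5, the GDNF-family ligands Gdnf and Nrtn, and the neurotrophin receptors Ntrk2, Ntrk3 and Ngfr. The choice was made by symbol and not by a measured value, although earlier results of these data were known when it was made. They were measured by bulk RNA sequencing of sorted leptomeningeal cells, from the thin inner membranes around the brain, in 3 libraries of 1 group. The labels call the material a pia-enriched fraction of vehicle-treated mice; strain, sex, age, the vehicle and the sorting markers are not described there. Nothing in the labels says whether the libraries came from separate animals or pools, so the spread given below is that between these samples and may be partly technical.

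Neurotrophins are secreted dimers that keep neurons alive and shape their axons. They bind TRK receptor tyrosine kinases: BDNF and neurotrophin 4/5 bind TRKB (Ntrk2), and neurotrophin 3 binds TRKC (Ntrk3). All of them also bind p75 (Ngfr), a member of the tumour necrosis factor receptor family. GDNF-family ligands act through a GPI-anchored GFRA co-receptor and the kinase RET, with GDNF preferring GFRA1 and neurturin (Nrtn) preferring GFRA2. In meninges, sensory and sympathetic axons run along the vessels, and fibroblasts and other cells of the membranes can produce factors to which such axons respond.

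The 8 genes covered nearly the whole range of detectable expression, with Ntrk2 and Ntrk3 highest, Ntf3 and Ngfr between, and the other ligands, Bdnf, Ntf5, Gdnf and Nrtn, below 1 CPM on average. All 8 had a count in at least 1 library and 7 had a count in every library, against 39.6% of all genes in the table. A filter on low counts was passed by 5 of the 8 (57.4% of genes with any count), and 4 reached a mean of 1 count per 1000000 (CPM), against 56.6% of genes with any count. The last 2 shares are close to the background. The share with a count in every library is set against all genes in the table, many of which had no count at all. Of the 25083 genes with any count, 18614 had a count in every library. The 7 of 8 is therefore not read as a feature of these genes. CPM are counts divided by library size scaled by TMM, which sets the libraries level over most genes. Gene counts ranged from 21002860 to 28704952 per library, and a count of 0 allowed up to 0.152, 0.101 and 0.116 CPM in libraries 1, 2 and 3.

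The promoters of the genes with the highest and the lowest level are shown to give the sequence context of both ends of that range. RefSeq windows on GRCm38.p6, from 250 bases before to 50 bases after a transcription start, were found for 6 of the 8 genes. The window of Ntrk2 lies at chr13:58806319-58806618 on the plus strand and that of Nrtn at chr17:56757499-56757798 on the minus strand; each is written from 5′ to 3′ with CG dinucleotides, which read the same on both strands, in capitals.
Ntrk2: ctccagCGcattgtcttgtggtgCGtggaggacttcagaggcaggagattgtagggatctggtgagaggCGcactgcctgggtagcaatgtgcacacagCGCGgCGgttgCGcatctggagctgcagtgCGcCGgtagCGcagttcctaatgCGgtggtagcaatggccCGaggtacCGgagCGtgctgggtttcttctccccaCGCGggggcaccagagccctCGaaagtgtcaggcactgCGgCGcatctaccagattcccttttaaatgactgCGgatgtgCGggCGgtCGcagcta
Nrtn: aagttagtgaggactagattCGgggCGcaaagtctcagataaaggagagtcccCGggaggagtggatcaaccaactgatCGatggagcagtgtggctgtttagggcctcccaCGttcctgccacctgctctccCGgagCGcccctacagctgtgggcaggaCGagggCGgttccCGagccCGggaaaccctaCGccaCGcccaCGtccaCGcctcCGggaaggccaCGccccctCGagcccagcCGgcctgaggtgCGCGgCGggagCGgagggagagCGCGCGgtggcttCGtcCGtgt
The Ntrk2 window holds 23 CG dinucleotides and the Nrtn window 28. Of 32851 promoter windows of the same length, 21.5% hold at least 23 and 14.2% at least 28, so both ends of the expression range have CG-rich starts. Bdnf has 7 windows in the same table, with 2 to 13 CG dinucleotides each.

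Among the receptors, Ntrk2 stood highest. Ntrk2 (ENSMUSG00000055254.14, chromosome 13, 58806569 to 59133970, plus strand) was at 308, 277 and 263 CPM in libraries 1, 2 and 3, from 6089, 8245 and 6824 counts. The 3 libraries were close to each other, at 282.6 ± 22.8 CPM (SD, n = 3). Per kilobase of exon its level was 14.7 ± 1.18 CPM, which placed it at percentile 88.0 of the 24953 genes with a count and a known length. For scale, Pdgfra, a receptor that marks fibroblasts and was chosen for this comparison after its value was seen, had 13.5 ± 1.19 CPM per kilobase, and its values (12.5, 14.8 and 13.1) overlapped those of Ntrk2 (15.9, 14.4 and 13.6). This overlap depends on dividing by all annotated exons, 19292 bases for Ntrk2 and 10024 for Pdgfra. Without division by length Pdgfra was lower, at 125, 148 and 131 CPM, and did not overlap Ntrk2. TRKB exists as a full-length kinase and as truncated receptors without the kinase domain. The annotation holds 8 coding Ntrk2 transcripts, with coding lengths from 151 to 2463 bases, and counts per gene cannot tell the full-length receptor from the truncated forms.

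Ntrk3, the gene of the neurotrophin 3 receptor TRKC, was lower. Ntrk3 (ENSMUSG00000059146.12, chromosome 7, 78175959 to 78738012, minus strand) was at 42.5, 50.4 and 45.3 CPM, or 46.1 ± 3.99 CPM (SD, n = 3). Library 2 was highest and library 1 lowest. Per kilobase of exon, Ntrk2 was 11.3, 8.60 and 9.08 times as high as Ntrk3 in libraries 1, 2 and 3, and the values of the genes did not overlap. Truncated TRKC forms are also annotated, among 9 coding transcripts, and are likewise not separated.

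Ngfr, the gene of the shared receptor p75, was lower still. Ngfr (ENSMUSG00000000120.6, chromosome 11, 95568818 to 95587735, minus strand) was at 2.63, 1.44 and 1.85 CPM, from 52, 43 and 48 counts, with a mean of 1.97 ± 0.601 CPM. Library 1 was highest and library 2 lowest. Its exact 95% Poisson intervals, which here and below cover counting error only because amplified reads are not independent molecules, ran from 1.96 to 3.45 CPM in library 1 and from 1.05 to 1.95 CPM in library 2, so these 2 libraries differed beyond counting error. Of the summed level per kilobase of exon of these 3 receptors, Ntrk2 made up 88.0%, 87.3% and 87.0% in libraries 1, 2 and 3, Ntrk3 7.78%, 10.2% and 9.58%, and Ngfr 4.21%, 2.55% and 3.43%. The sum over these 3 genes was thus largely TRKB transcripts in every library.

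**Figure D1:**
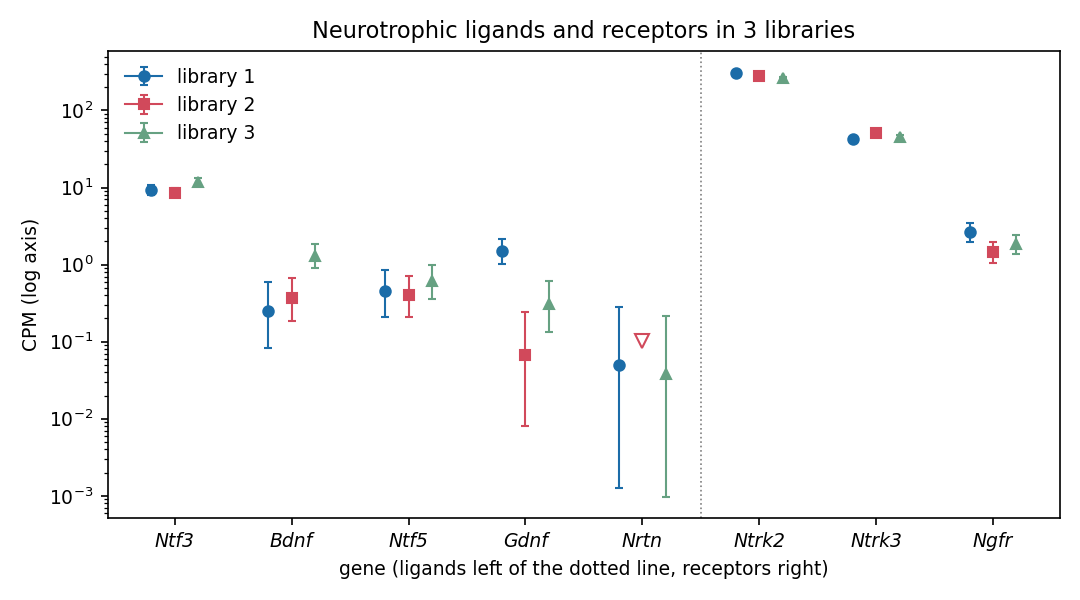
CPM of the 8 genes on a log axis in the 3 libraries; bars are exact 95% Poisson intervals, and the open triangle marks the limit of 0.101 CPM that a count of 0 allows for Nrtn in library 2. Ntrk2 lies between 263 and 308 CPM in every library, whereas Bdnf, Ntf5, Gdnf and Nrtn lie at or below 1.52 CPM.

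Among the neurotrophin ligands, Ntf3 was the only 1 of the 3 above 1 CPM on average. Ntf3 (ENSMUSG00000049107.13, chromosome 6, 126101412 to 126166910, minus strand), the gene of neurotrophin 3, was at 9.30, 8.60 and 11.9 CPM, from 184, 256 and 308 counts (9.93 ± 1.73 CPM, SD, n = 3). Library 3 was highest, and its Poisson interval (10.6 to 13.3 CPM) lay above that of library 2 (7.58 to 9.72 CPM). Per kilobase of exon Ntf3 was at 5.79 ± 1.01 CPM, percentile 77.2 of genes with a length.

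Bdnf, which encodes the main TRKB ligand of the brain, was scarce and uneven. Bdnf (ENSMUSG00000048482.14, chromosome 2, 109674700 to 109727007, plus strand) had 5, 11 and 34 counts in libraries 1, 2 and 3, which is 0.253, 0.370 and 1.31 CPM. Library 3 stood apart: its Poisson interval (0.908 to 1.83 CPM) lay above those of library 1 (0.0820 to 0.590 CPM) and library 2 (0.184 to 0.661 CPM). Without library 3 the mean fell from 0.644 to 0.308 CPM, so that library largely sets the mean. The antisense gene Gm45346 shares 896 exon bases with Bdnf, and since the strand setting of the counting is not given in the sources used here, reads from that stretch cannot be assigned to a strand.

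Ntf5 (ENSMUSG00000074121.2, chromosome 7, 45413695 to 45417179, plus strand), the gene of neurotrophin 4/5, had 9, 12 and 16 counts, or 0.455, 0.403 and 0.617 CPM. Its 3 Poisson intervals overlapped, so no difference between libraries was detectable at this depth. Set beside their receptor per kilobase of exon, both TRKB ligands were far lower: Ntrk2 was 392, 242 and 64.7 times as high as Bdnf in libraries 1, 2 and 3, and 93.0, 94.5 and 58.6 times as high as Ntf5.

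Of the summed level per kilobase of exon of these 3 ligands, Ntf3 made up 96.2%, 96.0% and 94.0% in libraries 1, 2 and 3, Ntf5 3.03% ± 0.124 and Bdnf 1.57% ± 1.13 (SD, n = 3). Per kilobase of the longest coding sequence the mean share of Ntf3 was 89.4% ± 3.45, so it was the main transcript of the 3 with either length. The share of Bdnf was highest in library 3 (2.86% per kilobase of exon) and lowest in library 1 (0.721%).

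The GDNF-family ligands were at or near the limit of detection, with 1 exception in 1 library. Gdnf (ENSMUSG00000022144.3, chromosome 15, 7810846 to 7837575, plus strand) had 30, 2 and 8 counts, or 1.52, 0.0672 and 0.308 CPM in libraries 1, 2 and 3. Library 1 stood apart, with a Poisson interval of 1.02 to 2.16 CPM, above those of library 2 (0.00814 to 0.243 CPM) and library 3 (0.133 to 0.608 CPM). Without library 1 the mean fell from 0.630 to 0.193 CPM. Nrtn (ENSMUSG00000039481.5, chromosome 17, 56751325 to 56757530, minus strand) had 1, 0 and 1 counts, where the count of 0 in library 2 allows up to 0.101 CPM, and its longest transcript has a GC content of 72.8%, at the top of the tested genes. Whether Nrtn is expressed at all cannot be read from 2 counts.

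Beside these ligands, their co-receptors were clearly measured and their kinase was not abundant. Gfra3, the co-receptor of artemin, was at 20.5, 22.4 and 44.3 CPM, and Gfra1, that of GDNF, at 10.9, 13.0 and 28.9 CPM. Gfra2, that of neurturin, was at 9.35, 7.49 and 20.1 CPM, and Gfra4, that of persephin, at 1.47 ± 0.347 CPM. Library 3 was highest for Gfra1, Gfra2 and Gfra3. Ret, the signalling kinase of the family, was at 0.960, 0.806 and 0.925 CPM, and per kilobase of exon at 0.133 ± 0.0119 CPM, below the lowest value of any of the 4 co-receptors in every library. Ncam1, an adhesion molecule that can serve GDNF with GFRA1 as an alternative receptor, was at 117 ± 3.71 CPM. Of the GFRA sum per kilobase of exon, Gfra3 made up 66.6% ± 1.90. Per kilobase of the longest coding sequence its share was 51.8% ± 1.79.

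**Figure D2:**
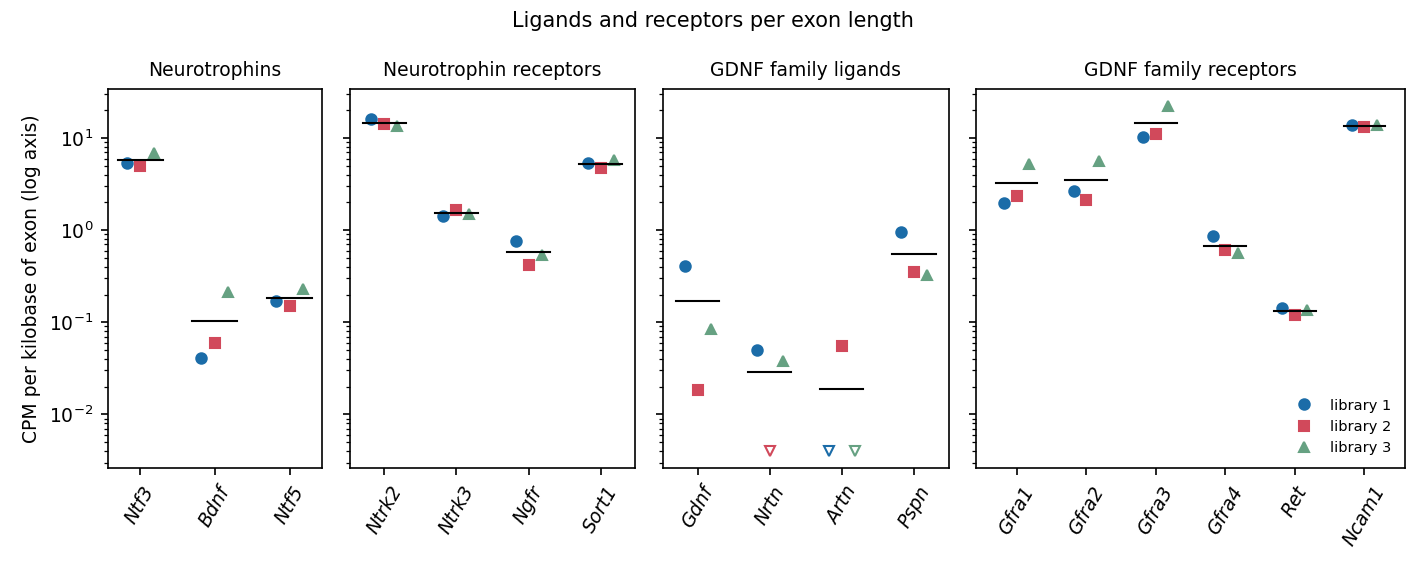
CPM per kilobase of exon on a log axis for ligands and receptors of both families; points are the 3 libraries, black lines their means, and open triangles at the bottom mark a count of 0. Ntf3 and Ntrk2 lie at 5.02 or higher in every library, and Ret lies at 0.133 on average, below Gfra1 to Gfra4.

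Levels of different genes were ordered per kilobase of all annotated exons. The order was Ntrk2, Ntf3, Ntrk3, Ngfr, Ntf5, Gdnf, Bdnf and Nrtn. The 4 pairs from Ntrk2 down to Ntf5 were separate, with no overlap between the 3 values of neighbours: Ntrk2 was 2.55 times Ntf3, Ntf3 3.76 times Ntrk3, Ntrk3 2.74 times Ngfr, and Ngfr 3.05 times Ntf5. Each of these 4 orders held in 3 of 3 libraries; p was 0.25 for each by a two-sided exact permutation test that flips signs, which is the smallest value 3 libraries allow, and 0.375 after Benjamini-Hochberg adjustment over 6 neighbouring pairs. Ntf5, Gdnf and Bdnf overlapped in level and were not ordered (exact permutation p = 0.5 and 1, adjusted 0.6 and 1). Nrtn, at 0 in library 2, was left out of the pairs.

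The place of Ntf3 against Ntrk3 turned with the length used. Ntrk3 has 30170 bases of annotated exon, of which at most 2592 are coding in 1 transcript, whereas Ntf3 has 1714 and 813. Per kilobase of all exons Ntrk3 was at 0.260, 0.333 and 0.217 times Ntf3 in libraries 1, 2 and 3, but per kilobase of the longest coding sequence at 1.44, 1.84 and 1.20 times. Ntrk2 kept the first and Ngfr the fourth rank under all 4 ways of handling length. The order of this receptor and its ligand is therefore not settled by counts per gene.

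**Figure D3:**
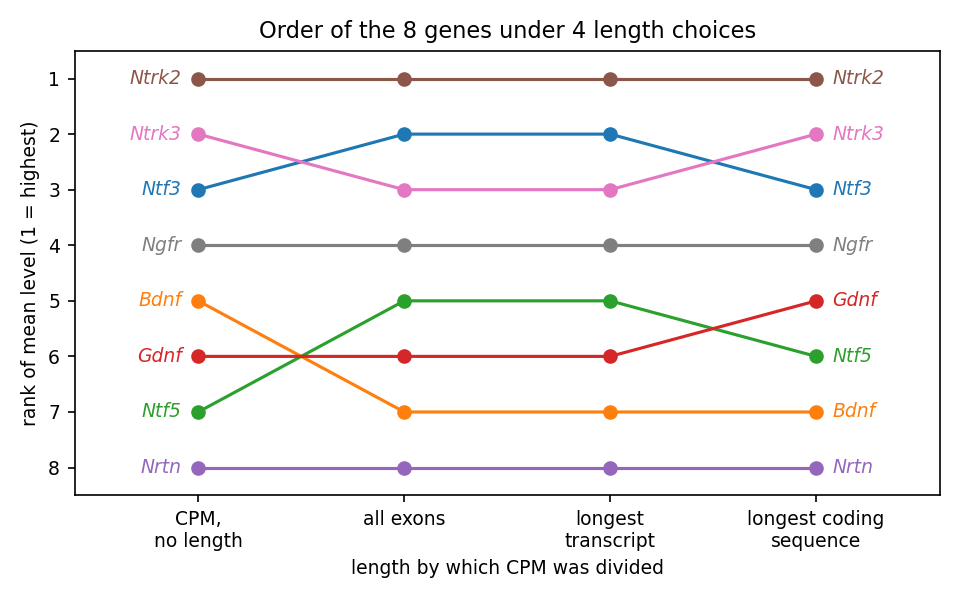
Rank of the mean level of the 8 genes (1 is highest) when CPM was not divided by length, or was divided by all exons, the longest transcript or the longest coding sequence. Ntrk2, Ngfr and Nrtn keep ranks 1, 4 and 8, whereas Ntf3 and Ntrk3 exchange ranks 2 and 3.

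Variation between libraries was tested with edgeR's goodness-of-fit test, which asks whether a gene varied more than genes of similar abundance. Of the 5 genes past the filter (Ntrk2, Ntrk3, Ntf3, Ngfr and Ntf5), 0 were called at an adjusted p-value of 0.05, against 0.437% of all 14409 genes tested, and 0 of the 5 had an unadjusted p under 0.05. The edgeR adjusted p was 0.9997 for each of the 5. Bdnf, Gdnf and Nrtn did not pass the filter. With the filter dropped all 8 were tested, and Gdnf had the lowest edgeR adjusted p of the 8, 0.736. This test sees only large shifts: in simulated counts with the means and dispersions of the 14409 genes, it recovered 0 of 200 genes changed 2-fold in 1 library, 51 of 200 changed 4-fold and 144 of 200 changed 8-fold. Differences like those of Ngfr and Ntf3 were thus out of its reach, and no call does not show equal levels.

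Ntrk2 and Ntrk3 varied little as counted. Their SD was 8.05% and 8.66% of the mean, at percentiles 7.09 and 8.20 among genes past the filter, whose median was 27.8%. Ntf3 varied by 17.4%, Ntf5 by 22.7% and Ngfr by 30.4%. Library 1, however, differs from the others in a way that follows GC content and exon length, and the genes lie at different places on that trend. Bdnf (GC content 40.9%) and Ntrk3 (43.6%) lie at percentiles 7.78 and 17.5 of tested genes and Ngfr (58.6%) at 93.0. The fitted log2 shift of library 1 against the mean of libraries 2 and 3 was -1.045 for Bdnf, -0.88 for Ntrk3, -0.27 for Ntrk2 and 0.39 for Ngfr. With this trend removed, Ntrk3 was at 64.0, 35.2 and 43.2 CPM, so that library 1 moved from lowest to highest and its SD rose to 31.4% of the mean. Ntrk2 was then at 348, 239 and 270 CPM, with an SD of 19.7%, near the median of 22.4% for all genes, whereas the SD of Ngfr fell to 14.0%. The small spread of Ntrk2 and Ntrk3 thus held only for values without this correction. The library that stood apart was the same for Bdnf (library 3, 1.105 CPM against 0.409 and 0.271) and for Gdnf (library 1, 1.43 CPM against 0.0697 and 0.315).

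**Figure D4:**
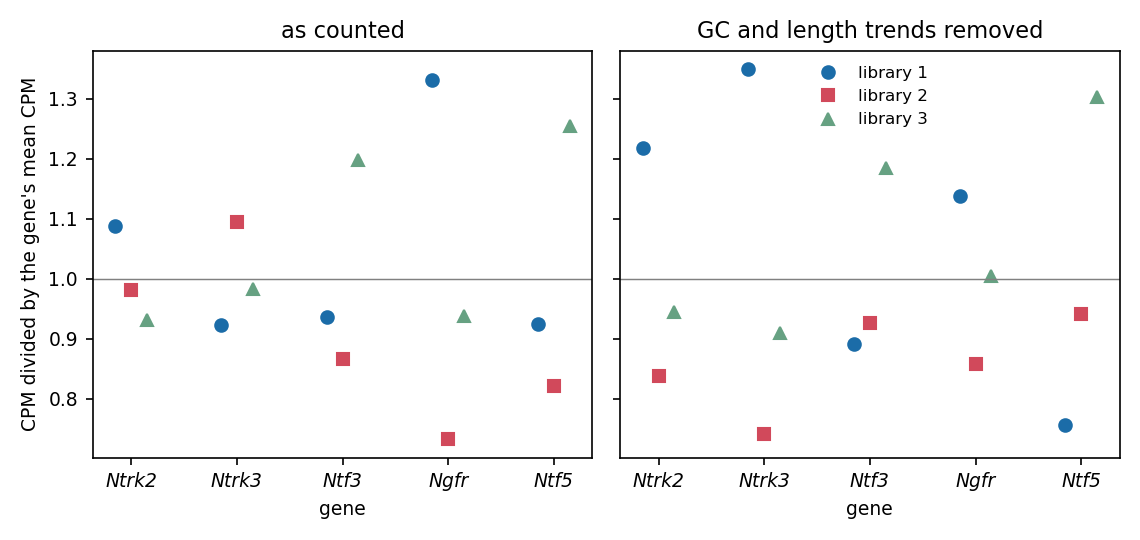
CPM of the 5 genes past the filter divided by each gene's mean, in the 3 libraries, as counted (left) and with the trends in GC content and exon length removed (right). Ntrk3 goes from an SD of 8.66% to 31.4% of its mean and Ngfr from 30.4% to 14.0%.

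Other genes of the pathways were taken from 7 lists, whose counts are given beside the 56.6% of genes with any count that reach 1 CPM and their median of 2.18 CPM. Of 8 neurotrophin partners 6 reached 1 CPM, with a list median of 19.2 CPM. Sort1, the gene of sortilin, which binds proneurotrophins together with p75, was at 39.9 ± 4.19 CPM, and Nradd, a p75-related death domain gene, at 24.2 ± 7.96 CPM. Of 11 GDNF-family partners 6 reached 1 CPM (median 1.47 CPM), and Gfral, named after its values were seen, had no count in any library. Of 10 genes of the CNTF and LIF family 6 did so (median 11.9 CPM), led per kilobase by the shared signalling receptor Il6st at 389 ± 56.6 CPM and the CNTF receptor Cntfr at 82.4 ± 40.4 CPM. Of 9 genes for other neurotrophic factors and their receptors 7 did so (median 10.7 CPM). Mdk, which encodes the heparin-binding growth factor midkine, was at 1177, 455 and 347 CPM, and Ptn, its relative pleiotrophin, at 534 ± 63.5 CPM.

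Genes that process or transduce neurotrophin signals were widely present. Of 12 genes for proneurotrophin processing 10 reached 1 CPM (median 19.6 CPM). Plat, tissue plasminogen activator, was at 411.5, 279.6 and 342.9 CPM and Cpe, carboxypeptidase E, at 97.2 ± 44.0 CPM. Plg and Mmp7, named after their values were seen, had no count. Of 14 co-receptors, adaptors and secretases of p75, 13 reached 1 CPM (median 23.8 CPM), led per kilobase by Arhgdia, which encodes a GTPase dissociation inhibitor that p75 can bind, at 979 ± 323 CPM and the p75-binding protein gene Maged1 at 1639 ± 359 CPM. Of 14 TRK adaptors 13 did so (median 30.4 CPM), with Shc1 at 588 ± 84.1 CPM and Kidins220 at 164 ± 31.8 CPM. Most of these genes serve many other receptors. Of the 63 genes of the 7 lists that passed the filter, 2 (3.17%) were called variable by edgeR's goodness-of-fit test, against 0.437% of all genes tested, and are named for that reason: the pleiotrophin receptor gene Ptprz1 (1.16, 6.59 and 24.3 CPM, edgeR adjusted p = 0.0083) and Mmp9, a protease that can cleave proneurotrophins (88.6, 39.8 and 10.9 CPM, edgeR adjusted p = 0.0364).

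Genes with the 3 library values most like those of Ntrk2, by Euclidean distance on the log2(CPM + 1) scale, were Slc44a2 (0.0677), Cttn (0.0971) and Kdelr1 (0.124), and those most like Ntf3 were Ppcs (0.00506), Rbpms (0.0637) and Fam20c (0.106). With only 3 libraries such likeness is common: 100 of 14408 genes lay within 0.5 of Ntrk2 and 269 within 0.5 of Ntf3.

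Cells other than fibroblasts could hold some of these transcripts, and in bulk samples fewer cells of a type and less RNA per cell cannot be told apart. The fibroblast list summed to 21310 to 24790 CPM (5 of 5 genes with a count, led by Col1a2 and Col1a1) and the leptomeningeal fibroblast list to 1655 to 1739 CPM (8 of 8, led by Slc47a1 and Ptgds), so the defining markers of the labelled tissue were present. Astrocytes, a known site of truncated TRKB, had list sums of 727, 605 and 496 CPM (6 of 6 genes), in the same order as Ntrk2. Of these, Gjb6 made up 678, 559 and 419 CPM; without it the sums were 48.4, 45.5 and 76.9 CPM, highest in library 3, where Ntrk2 was lowest. The water channel Aqp4, picked from the list after its values were seen, was at 0.556, 0.571 and 4.43 CPM. Its mean of 1.85 CPM was the lowest of the 6 genes. Gfap and Slc1a2, also named after their values were seen, had means of 7.85 and 9.65 CPM and were likewise highest in library 3.

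The Schwann cell list, which includes Pmp22, summed to 2300, 2066 and 3322 CPM (8 of 8 genes) and the mural cell list, led by Acta2 and Tagln, to 3405, 2941 and 5143 CPM (8 of 8). Both sums were highest in library 3, as were Bdnf, Ntf3, Ntf5 and Gfra1 to Gfra3. S100b (338.5, 191.4 and 213.3 CPM) in the Schwann list and Pdgfrb (712.2, 542.5 and 535.7 CPM) in the mural list were highest in library 1. S100b and Pdgfrb were named after their values were seen. Every other gene of the Schwann and mural lists was highest in library 3. Oligodendrocyte (353 to 648 CPM, 5 of 5 genes, led by Cnp and Mobp), arachnoid barrier (258 to 403 CPM, 4 of 4, led by Abcg2 and Cldn11), choroid plexus (125 to 2711 CPM, 5 of 5, led by Ttr and Aqp1) and macrophage and microglia sums (10.2 to 567 CPM, 6 of 6, led by Lyz2 and C1qb) were also highest in that library. Only 3 of the 5 oligodendrocyte genes had a count in every library: Mog had 6, 0 and 17 counts and Olig2 2, 0 and 6. In the arachnoid barrier list Cldn11 (34.7, 25.1 and 32.4 CPM) and Krt19 (38.5, 19.8 and 13.6 CPM) were highest in library 1. So was Aqp1 (73.3, 56.9 and 60.6 CPM) in the choroid plexus list, where Clic6 was highest in library 2. The other genes of both lists were highest in library 3. Mog, Olig2, Krt19 and Clic6 were named after their values were seen. The macrophage gene Aif1 and the Schwann gene Foxd3, named for that reason, did not pass the filter and had no test. Against 0.437% of all genes tested, edgeR's goodness-of-fit test called variable 2 of 5 tested choroid plexus genes and 5 of 5 macrophage and microglia genes. It also called 1 of 7 tested Schwann genes. The Schwann gene, Cdh19, a cadherin gene named for this call, was at 3.54, 23.9 and 58.7 CPM (edgeR adjusted p = 0.0015). Endothelial markers (65.3 to 93.2 CPM, 6 of 6, led by Cdh5 and Egfl7) summed highest in library 1, where Gdnf was also highest. In that list only Egfl7 and Tie1 were highest there, Cdh5 in library 2, and Pecam1, Cldn5 and Flt1 in library 3. Neuron markers (74.2 to 88.7 CPM, 7 of 7, led by Snap25 and Tubb3) summed highest in library 2. Only Snap25 of that list was highest there. Rbfox3, Syt1, Slc17a7 and Stmn2 were highest in library 1, and Tubb3 and Gad1 in library 3. Tie1, Pecam1, Cldn5, Flt1 and the neuron genes other than Snap25 and Tubb3 were named after their values were seen. The part of these cell types in the levels of the 8 genes was not tested.

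**Figure D5:**
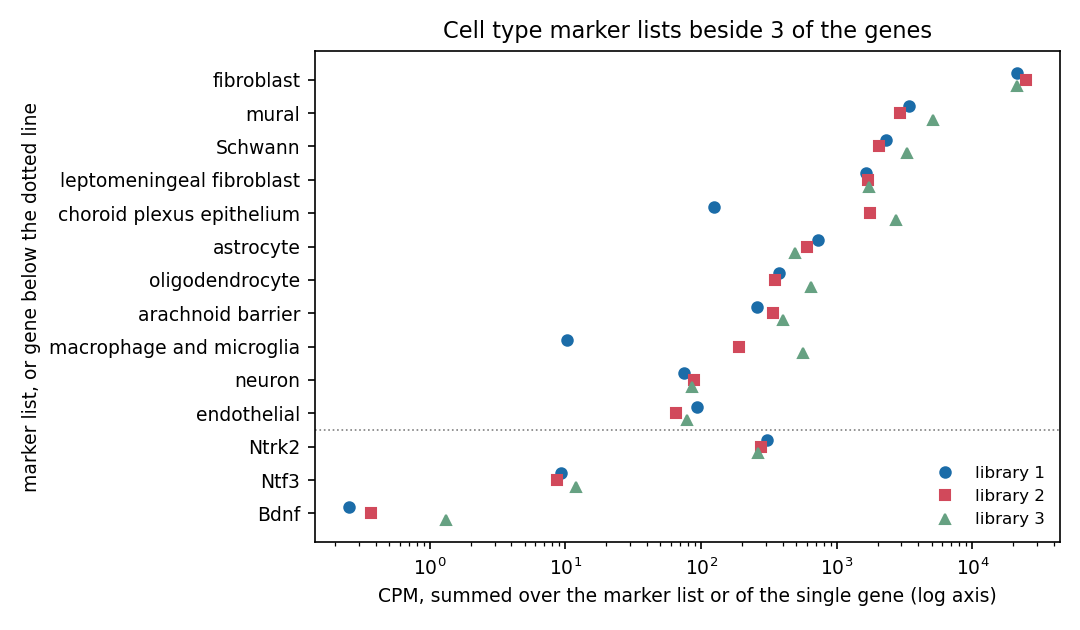
Summed CPM of 11 cell type marker lists in the 3 libraries on a log axis, with the CPM of Ntrk2, Ntf3 and Bdnf below the dotted line. The macrophage and microglia sum runs from 10.2 to 567 CPM, whereas Ntrk2 stays between 263 and 308 CPM.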

How the data were processed

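Leptomeninges were microdissected, dissociated and sorted; from each sample 2 ng of RNA (integrity 9.7 to 10) was amplified over 12 cycles and 10 ng of cDNA made into libraries with 8 PCR cycles, read as 50 bp pairs, per the labels' protocols. The deposited values are raw whole-number counts per gene; the submitters' processing notes list HTSeq 0.5.3, DESeq2 1.22.1 and mm10 without roles. Aligner, annotation release and strand setting were not given in the sources used here. The 5 counter rows of unassigned reads (45.6%, 39.1% and 39.6% of library totals) were left out.

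Counts were scaled by TMM in edgeR 4.0.16 (R 4.3.3) and filtered with filterByExpr (minimum count 10). As a single group leaves nothing to contrast by quasi-likelihood, edgeR's goodness-of-fit test with trended dispersions (2 degrees of freedom, Benjamini-Hochberg over all genes, threshold 0.05) was used, checked on simulated counts. Lengths, positions and GC content came from GENCODE M21 (GRCm38, the same assembly as mm10), where 46488 of 46983 identifiers and all 8 genes were found. The trend in GC content and length was fitted per library with natural splines (5 degrees of freedom each). Alternatives were DESeq2 1.42.0 size factors, plain totals, other filters, dispersion, lengths and leaving out each library. The 8 genes and all lists were chosen with earlier results of these data known. Named are the 8 genes, Sort1, Ret, Gfra1 to Gfra4, the 2 most abundant genes of each list (per kilobase for pathways) and the 3 nearest genes of the 2 leading ones; others are said to be so. Some items that this rule would name are not reported here.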

Additional observations from a re-analysis of the deposited data

Results flagged for a closer look

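Reads in the table that were assigned to no gene are a signal outside the measurement used, and all exceed the limit set by 3 counts. On average over the libraries, 16.5% of all reads aligned to more than 1 place, 1.35% were shared by genes, 8.89% lay outside annotated genes and 14.7% were not aligned. None of them can be assigned to the 8 genes from the table. Groups of 3 libraries were too small for a check for single outlying samples.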

How the results depend on the processing

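The mean CPM of the 8 genes stayed within 1 SD of the reported value in all 48 alternatives (size factors, plain totals, trend removal, and each library left out). However, that SD is nearly as large as the mean, or larger, for Bdnf, Gdnf and Nrtn. Apart from small changes in scaling, leaving out a library cannot move a mean by 1 SD with so few libraries, whatever the values. For all 8 genes the alternatives with a library left out were therefore bound to pass and do not test the levels. The 11 marker sums and 49 alternative counts of pathway genes (thresholds of 0.5 and 5 CPM, scalings, libraries left out) moved by less than 1 SD and less than 1.5 times, respectively. The order of neighbours kept its direction in 42 of 48 alternatives. Many of these could not turn it: size factors and plain totals cancel in a ratio of genes within a library. Leaving out a library could not turn pairs whose direction held in every library either. The log2 ratio of Ntf3 over Ntrk3 (1.91 per kilobase of exon) turned to -2.23 with no division by length and -0.55 per kilobase of coding sequence, which follows from the lengths of the genes. That of Gdnf over Bdnf (0.105) was -0.65, -0.44 and -0.39 with no length, the longest transcript and the coding sequence, and with each library left out its lowest value was -1.515 (library 1) and its highest 1.008 (library 2). Of the 8 genes, 0 were called variable under any of the 10 settings, with 4 to 8 of them tested; without library 1, Bdnf had an unadjusted edgeR p of 0.0496 and an adjusted p of 0.889. Over all genes, 63 were called, against 108 with trends removed, 139 with no filter, and 13 to 29 with a library left out. No paired analysis was possible because all libraries belong to a single group. Depth limits Bdnf, Ntf5, Gdnf and Nrtn, which had at most 34 counts in a library.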
